A study of Mus musculus with 4 samples.

Results

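The genes described here are 35 genes of sterol and fatty acid synthesis and of the SREBP system that controls them. They were chosen by name, as listed enzymes and regulators of these pathways, and matched to the deposited tables by Ensembl gene ID. A row was found for 34 of the 35, out of 37681 gene IDs in each table. Hmgcs1, which makes HMG-CoA, matched no row by its ID and was not analysed here.

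The study sequenced mRNA of marrow-derived cells from C57BL/6 mice labelled wild type. The culture medium was DMEM, with added fetal bovine serum and with L929 supernatant, which supplies M-CSF and so favours macrophages. It asked how the cells respond to Pam3Cys4, a synthetic lipopeptide that activates TLR2-TLR1 receptor pairs, in the presence and absence of an shRNA against lncRNA-COX2. The 4 groups held 1 library each: shRNA with 100 nM Pam3Cys4 for 5 h, shRNA unstimulated, no shRNA with 100 nM Pam3Cys4 for 5 h, and no shRNA unstimulated. They are called below shRNA plus Pam3Cys4, shRNA alone, Pam3Cys4 alone and neither. No label ties a library to an animal or culture, and the level of the targeted lncRNA was not analysed here. The labels describe the last pair only as having no shRNA. Their titles carry the letters EV, which no label explains, so a control construct in those cells is neither stated nor denied.

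Cholesterol is built from acetyl-CoA through mevalonate, squalene and lanosterol, and fatty acids are built from the same acetyl-CoA by acetyl-CoA carboxylase and fatty acid synthase, then lengthened and desaturated. The transcription factors SREBP1 and SREBP2, encoded by Srebf1 and Srebf2, drive most of these enzyme genes. They are escorted from the endoplasmic reticulum by SCAP when sterols are low and held there by the INSIG proteins when sterols are high. Macrophages are known to change lipid synthesis after Toll-like receptor signals and to halt sterol synthesis in answer to interferon and to 25-hydroxycholesterol.

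The libraries held 47385277 to 65826838 gene reads. Levels are given as CPM, gene counts divided by library size after edgeR's TMM scaling, and are compared between libraries and not between genes, since CPM does not correct for gene length. All 34 genes reached 5 CPM in the higher library of each comparison. The 8 macrophage markers summed to 8107 CPM in shRNA plus Pam3Cys4, 6519 in shRNA alone, 8411 in Pam3Cys4 alone and 5800 in neither. They did not move together. In the additive edgeR test described below, Mertk (log2 2.94, adjusted p 0.00092) and Cd68 (0.87, adjusted p 0.0115) rose with shRNA and Adgre1 fell (-0.79, adjusted p 0.0134). With Pam3Cys4, Cd14, Lyz2 and Adgre1 rose and Mertk fell. The 3 endothelial markers summed to 16.8 CPM in shRNA plus Pam3Cys4, 10.8 in shRNA alone, 6.51 in Pam3Cys4 alone and 5.93 in neither. Only 1 of them, Kdr, was high enough to be tested, and it rose with shRNA (edgeR adjusted p 0.0118). Adipocytes are a lipid-making cell of marrow. Of their 5 markers, 3 (Adipoq, Cidec and Lep) had no read in any library, and the list summed to at most 0.139 CPM. The libraries with and without shRNA also stood apart in Y-linked genes, which were looked at after the values were seen. Ddx3y had 1116 counts in shRNA plus Pam3Cys4 and 921 in shRNA alone, against 4 in Pam3Cys4 alone and 3 in neither. The interferon-stimulated gene Isg15, chosen in the same way, was at 185 and 44.9 CPM in shRNA plus Pam3Cys4 and shRNA alone, against 9.15 and 0.787 CPM in Pam3Cys4 alone and neither. The strand setting of the counting is not known, and 5 of the 34 genes had over 5% of their exon bases in exons of another gene. Effects of the shRNA and of the source animals cannot be told apart, and the part of the interferon genes and of these marker differences in the results below was not tested. In such bulk libraries, fewer cells of a type and less RNA per cell cannot be told apart either.

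The promoters of 4 genes are shown because they belong to genes whose values are set against each other below. Insig1 had stimulation ratios below 1 and Hsd17b7 above 1 in both shRNA states, Lpin1 had the lowest stimulation ratio of the 34, and Fads2 was the one gene that rose with shRNA. Each is a RefSeq window of 300 bases on GRCm38.p6, from 250 bases before to 50 after the annotated start, written 5′ to 3′ on the gene's strand. Capitals mark matches, read on either strand, to the NF-Y box CCAAT or the E-box CACGTG. Insig1 is at chr5:28071162-28071461 (plus strand), Hsd17b7 at chr1:169969156-169969455 (minus strand), Lpin1 at chr12:16610917-16611216 (minus strand) and Fads2 at chr19:10101454-10101753 (minus strand).
Insig1: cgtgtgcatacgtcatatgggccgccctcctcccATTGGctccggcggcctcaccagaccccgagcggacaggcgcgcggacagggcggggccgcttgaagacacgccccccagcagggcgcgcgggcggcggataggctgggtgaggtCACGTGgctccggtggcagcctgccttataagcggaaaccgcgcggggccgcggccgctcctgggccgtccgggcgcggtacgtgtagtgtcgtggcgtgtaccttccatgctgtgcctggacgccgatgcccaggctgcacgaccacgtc
Hsd17b7: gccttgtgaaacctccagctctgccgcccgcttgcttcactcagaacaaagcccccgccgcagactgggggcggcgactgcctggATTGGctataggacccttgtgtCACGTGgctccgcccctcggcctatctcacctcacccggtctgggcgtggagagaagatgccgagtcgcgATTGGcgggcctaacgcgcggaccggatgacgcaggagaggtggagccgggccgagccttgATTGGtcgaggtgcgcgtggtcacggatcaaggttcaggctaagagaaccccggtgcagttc
Lpin1: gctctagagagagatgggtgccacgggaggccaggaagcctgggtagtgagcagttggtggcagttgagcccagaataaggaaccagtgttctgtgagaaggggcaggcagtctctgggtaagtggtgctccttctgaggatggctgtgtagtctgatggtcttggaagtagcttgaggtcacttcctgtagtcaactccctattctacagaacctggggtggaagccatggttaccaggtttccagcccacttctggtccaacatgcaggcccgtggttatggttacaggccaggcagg
Fads2: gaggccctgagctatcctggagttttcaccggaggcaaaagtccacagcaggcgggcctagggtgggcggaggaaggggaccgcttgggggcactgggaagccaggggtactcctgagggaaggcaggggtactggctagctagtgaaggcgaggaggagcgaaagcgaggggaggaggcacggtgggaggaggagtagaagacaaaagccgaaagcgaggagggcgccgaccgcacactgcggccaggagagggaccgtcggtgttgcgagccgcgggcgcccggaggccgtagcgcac

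The Insig1 window held 1 CCAAT and 1 CACGTG and the Hsd17b7 window 3 CCAAT and 1 CACGTG. Lpin1 and Fads2 held neither. The relation of these matches to the ratios was not tested. RefSeq gave 36 windows for 28 of the 35 genes. CCAAT was in 23 of them, or 63.9%, against 37.4% of all 32851 windows. CACGTG was in 7, or 19.4%, against 7.15% of all. The core of the sterol regulatory element, TCACNCCAC, was in 1 window, that of Hmgcs1, or 2.78%, against 1.24% of all windows. Matches of different motifs were counted separately, also where they overlapped, and a match is a string of letters and not a measured binding site.

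The 34 genes summed to 5448 CPM in shRNA plus Pam3Cys4, 7477 in shRNA alone, 7614 in Pam3Cys4 alone and 8392 in neither. The library with both treatments was the lowest. Reads of Fasn and Scd2 made up much of this sum. Fasn, the fatty acid synthase, had 1423 CPM in shRNA plus Pam3Cys4, 2055 in shRNA alone, 2164 in Pam3Cys4 alone and 2033 in neither. With 1 library per group, ratios between libraries have no replicate check, and their 95% intervals cover counting error only. Counts of genes called 2-fold higher or lower need a ratio of at least 2 or at most 0.5 whose interval leaves out 1.

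**Figure D1:**
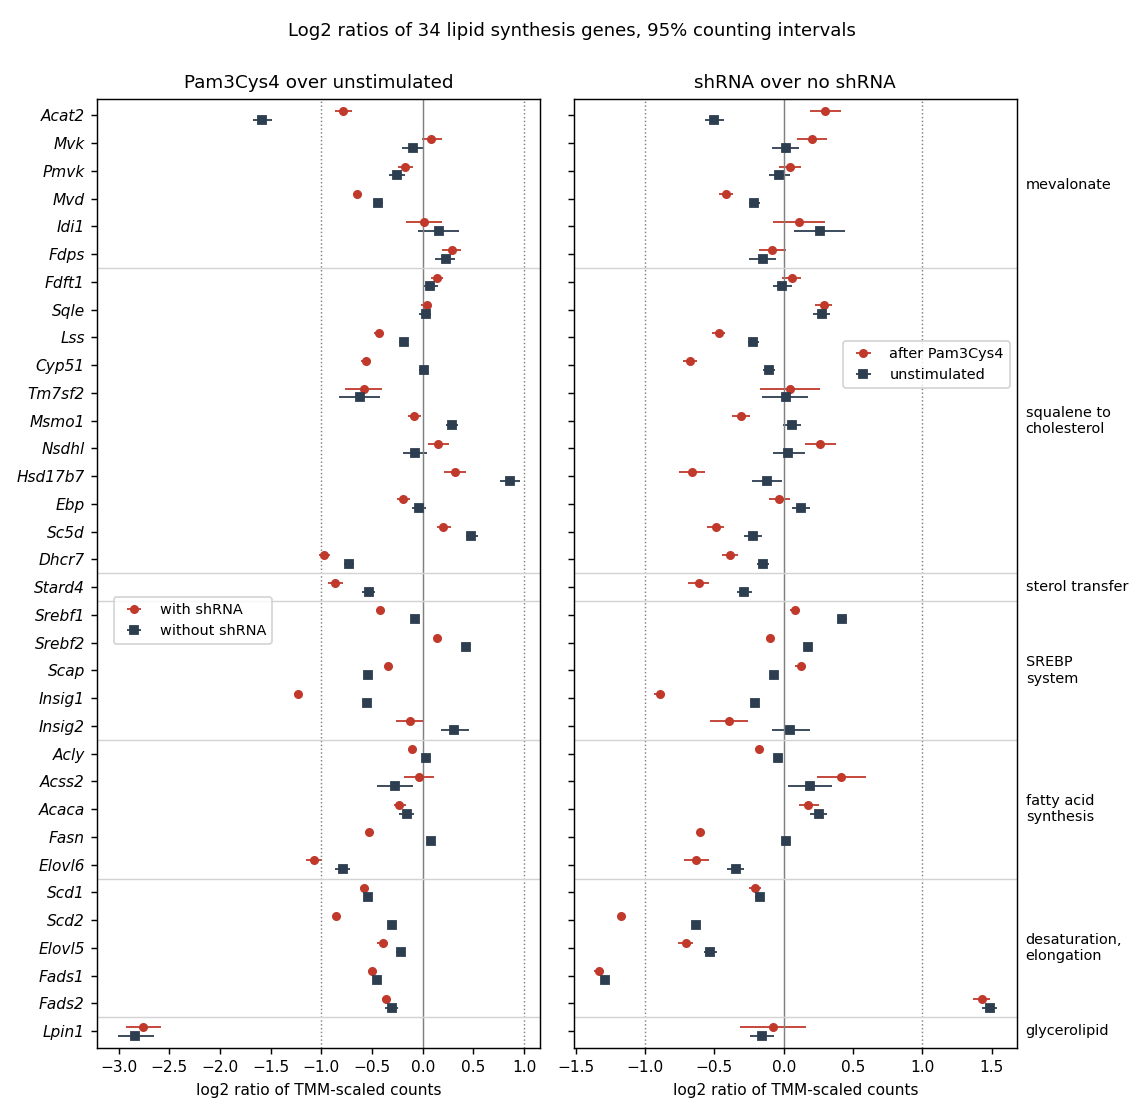
Log2 ratios (x axis) of the 34 genes (y axis, grouped by role), for Pam3Cys4 over unstimulated cells on the left and shRNA over no shRNA on the right. Points are single ratios, bars are 95% counting intervals and dotted lines mark 2-fold. Lpin1 stands alone on the left at log2 -2.75 and -2.83, and Fads1 and Fads2 lie on opposite sides on the right.

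Lpin1, the sterol enzymes Acat2, Mvd and Dhcr7, Insig1, Stard4 and the fatty acid enzymes Elovl6, Scd1 and Fads1 fell with Pam3Cys4, and no member rose in the test given below. With shRNA, 3 of 34 were at least 2-fold lower (3.53% of all 9601 measured genes were) and 0 were higher (6.30% of all). Without shRNA, 2 were at least 2-fold lower (6.51% of 9555) and 0 higher (7.07%). At 1.5-fold, 8 were lower with shRNA (11.0% of all) and 0 higher (13.6% of all). Without shRNA, 5 were lower at 1.5-fold (15.6% of all) and 1, Hsd17b7, was higher (15.2% of all). The median log2 ratio of the 34 was -0.35 with shRNA and -0.17 without, against 0.02 and 0.00 for all genes. Both stimulation ratios, which share no library, were below 1 for 20 of the 34 (58.8%), against 39.5% of the 9142 genes measured in both.

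A test over all 4 libraries was possible only as an additive model, with shRNA and stimulation as factors, by edgeR's quasi-likelihood F test. It takes the 2 shRNA states as repeats of each stimulation state, and the p-values therefore say nothing of how separate cultures vary. Of the 34 genes, 9 fell with Pam3Cys4 and 0 rose at a Benjamini-Hochberg adjusted p of 0.05 over 9559 genes. In all, 10.9% of the genes tested fell and 11.9% rose. At an unadjusted p of 0.05, 13 of the 34 were lower (20.3% of all genes tested were) and 1 was higher (21.0% of all). DESeq2 called 11 lower (12.2% of all) and 0 higher (13.3% of all).

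The largest change among the 34 was in Lpin1 (ENSMUSG00000020593), whose product lipin-1 is a phosphatidate phosphatase of glycerolipid synthesis and, in the nucleus, a coregulator of lipid genes. Lpin1 had 5.41 CPM in shRNA plus Pam3Cys4 against 36.5 in shRNA alone, and 5.72 CPM in Pam3Cys4 alone against 40.7 in neither. Both stimulated libraries were far below both unstimulated ones, and the shRNA states hardly differed. The ratio was 0.148 with shRNA (0.131 to 0.167) and 0.140 without (0.124 to 0.159). The additive fit gave log2 -2.79 (standard error 0.14, edgeR adjusted p 0.00236).

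In the mevalonate branch, which makes the isoprenoid units, 2 of the 6 measured genes fell with Pam3Cys4 (10.9% of all genes tested did). Acat2, the cytosolic thiolase that makes acetoacetyl-CoA, had 28.3 CPM in shRNA plus Pam3Cys4 against 48.7 in shRNA alone, and 23.0 CPM in Pam3Cys4 alone against 68.9 in neither (log2 -1.18, standard error 0.22, edgeR adjusted p 0.0278). The fall was the larger one without shRNA, at a ratio of 0.334 (0.313 to 0.357), against 0.581 with shRNA (0.547 to 0.617). Of the 50-base windows of its transcripts, 39.1% also occur in Acat3 or other genes. Reads with several alignments were left out of the counts, so reads from such windows may be missing from its values. Mvd, which forms isopentenyl pyrophosphate, had 108 CPM in shRNA plus Pam3Cys4 against 170 in shRNA alone, and 145 CPM in Pam3Cys4 alone against 197 in neither (edgeR adjusted p 0.0378). Mvk and Pmvk, the kinases before it, and Idi1 and Fdps, which act after it, did not pass, with additive log2 values from -0.21 for Pmvk to 0.26 for Fdps. For Idi1 and Fdps, 25.3% and 26.2% of the 50-base windows occur in other genes too.

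On the way from squalene to cholesterol, 1 of 11 genes fell, near the 10.9% of all genes tested that did, and the others did not pass. Dhcr7, the reductase of the last step to cholesterol, had 79.3 CPM in shRNA plus Pam3Cys4 against 155 in shRNA alone, and 104 CPM in Pam3Cys4 alone against 172 in neither. Both stimulated libraries were below both unstimulated ones (log2 -0.85, standard error 0.12, edgeR adjusted p 0.0162). Without shRNA, 6 of the 11 ratios were above 1 and 5 below, and with shRNA 5 and 6. Tm7sf2 had ratios of 0.667 with shRNA and 0.649 without (edgeR adjusted p 0.0578). For Tm7sf2, 9.87% of the 50-base windows occur in other genes too, and 12.1% of the exon bases lie in exons of Vps51. Lss had ratios of 0.740 and 0.878 in the same states (edgeR adjusted p 0.13). The opening enzymes had ratios near 1. Fdft1, squalene synthase, had ratios of 1.10 with shRNA and 1.05 without, and Sqle, squalene epoxidase, 1.03 and 1.02. For Fdft1, 26.5% of the 50-base windows occur in other genes too, and 18.3% of the exon bases lie in exons of Ctsb. Hsd17b7, a ketosteroid reductase of the pathway, went the other way. It had 29.0 CPM in shRNA plus Pam3Cys4 against 23.2 in shRNA alone, and 45.9 CPM in Pam3Cys4 alone against 25.3 in neither. Its ratio was 1.25 with shRNA (1.16 to 1.34) and 1.82 without (1.70 to 1.95), with edgeR adjusted p 0.0727. Sc5d, the sterol desaturase, had ratios of 1.15 and 1.39 in the same states and an edgeR adjusted p of 0.125.

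Stard4, a carrier that moves cholesterol between membranes, fell as well. It had 43.2 CPM in shRNA plus Pam3Cys4 against 78.5 in shRNA alone, and 66.2 CPM in Pam3Cys4 alone against 95.6 in neither (log2 -0.70, standard error 0.14, edgeR adjusted p 0.032).

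In the SREBP system, 1 of 5 genes fell (10.9% of all genes tested did). Insig1 (ENSMUSG00000045294) retains the SCAP-SREBP complex and is itself a known SREBP target. It had 142 CPM in shRNA plus Pam3Cys4 against 334 in shRNA alone, and 264 CPM in Pam3Cys4 alone against 386 in neither. The stimulated libraries were lower in both states, by more with shRNA: the ratio was 0.425 (0.414 to 0.436) with shRNA and 0.683 (0.668 to 0.698) without (log2 -0.89, standard error 0.19, edgeR adjusted p 0.0368). Srebf2 had 546 CPM in shRNA plus Pam3Cys4 against 496 in shRNA alone, and 585 CPM in Pam3Cys4 alone against 438 in neither (edgeR adjusted p 0.179). Scap, the escort protein, had ratios of 0.788 with shRNA and 0.687 without (edgeR adjusted p 0.0587). For Scap, 9.96% of the 50-base windows occur in other genes too, and 13.2% of the exon bases lie in exons of another gene. Srebf1 and Insig2 had ratios of 0.747 and 0.915 with shRNA, and 0.949 and 1.24 without, and did not pass.

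Of the 5 fatty acid synthesis genes, 1 fell with Pam3Cys4 (10.9% of all genes tested did). This was Elovl6, which lengthens palmitate to stearate, at 30.5 CPM in shRNA plus Pam3Cys4 against 64.1 in shRNA alone, and 47.2 CPM in Pam3Cys4 alone against 81.6 in neither (log2 -0.93, standard error 0.14, edgeR adjusted p 0.0168). Acly, which makes cytosolic acetyl-CoA from citrate, had ratios of 0.927 with shRNA and 1.02 without. Acaca, acetyl-CoA carboxylase, had 0.853 and 0.895, with 30.4% of its 50-base windows also in other genes. Acss2, which makes acetyl-CoA from acetate, had 0.973 and 0.828, with 6.13% of its windows also in other genes. Fasn had 0.693 and 1.06, or 0.632 and 0.940 with library totals as the only scaling. None of these 4 passed the test.

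Of the 5 genes of desaturation and elongation, all had ratios below 1 in both states, and 2 fell past the test (10.9% of all genes tested did). Scd1, a stearoyl-CoA desaturase, had 158 CPM in shRNA plus Pam3Cys4 against 236 in shRNA alone, and 183 CPM in Pam3Cys4 alone against 266 in neither (log2 -0.56, standard error 0.11, edgeR adjusted p 0.0297). Fads1, described below, was the other (log2 -0.48, standard error 0.11, edgeR adjusted p 0.0428). With library totals as the only scaling, the all-gene median of the log2 ratio lay at -0.11 with shRNA and -0.18 without. That of the 34 was -0.49 and -0.35. Under that scaling 15 of the 34 fell, where 2023 of all 9567 genes tested did.

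**Figure D2:**
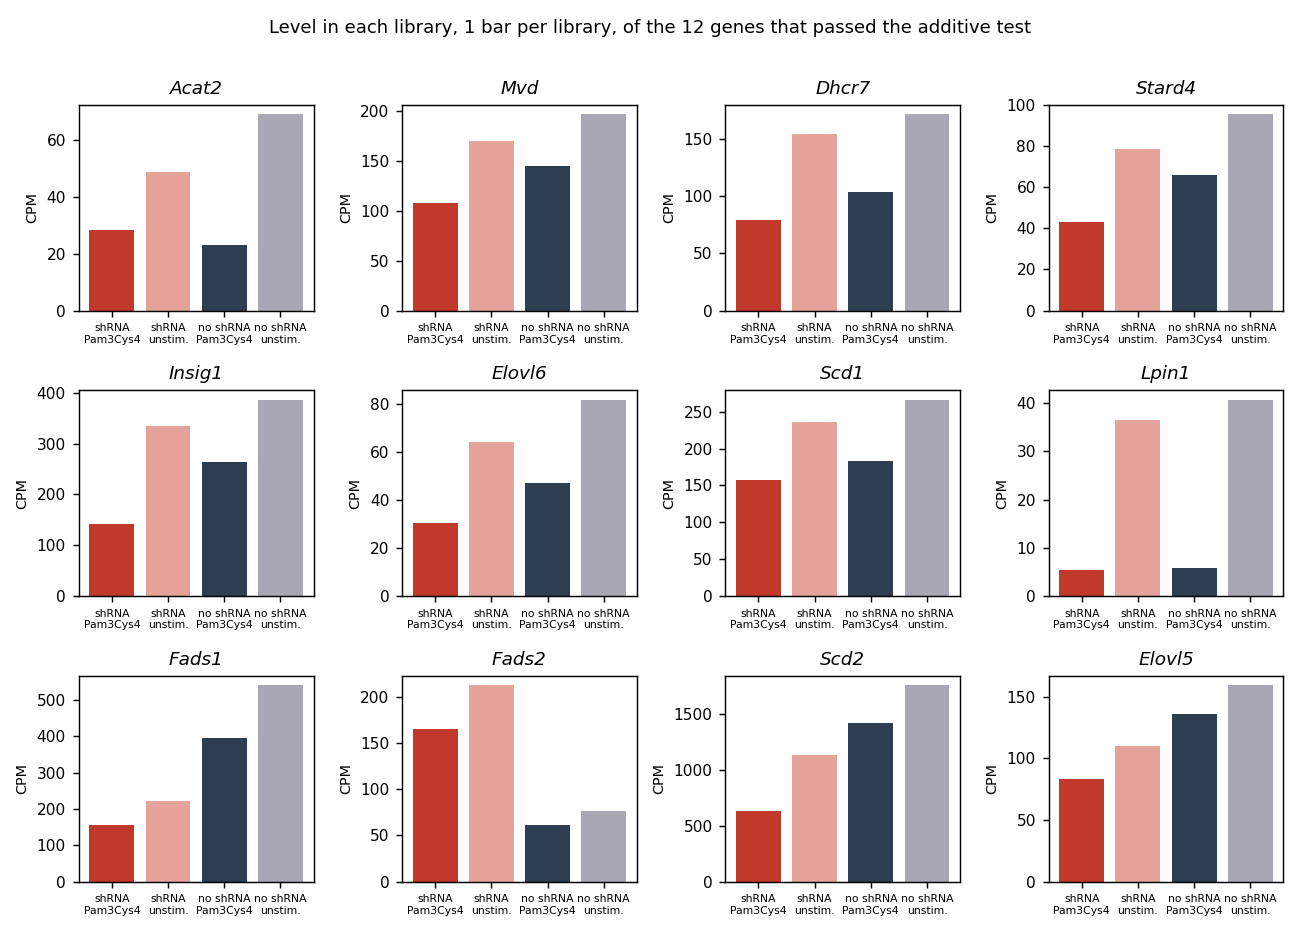
Level in CPM (y axis, from 0) of the 12 genes that passed the additive test for Pam3Cys4 or for shRNA, with 1 bar per library and no replicates. Lpin1 is low in both stimulated libraries, at 5.41 and 5.72 CPM, and Fads1 and Fads2 show opposite patterns over the shRNA states.

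With the shRNA, Fads2 rose and Fads1, Elovl5 and Scd2 fell, all of them genes of fatty acid desaturation and elongation. After Pam3Cys4, 1 of the 34 genes was at least 2-fold higher with shRNA (9.00% of all 9702 measured genes were) and 2 were lower (5.58%). In unstimulated cells, 1 was higher (7.00% of 9651) and 1 was lower (4.82%). At 1.5-fold, 9 were lower after Pam3Cys4 (12.0% of all) and 2 in unstimulated cells (10.2% of all), and Fads2 was the 1 gene higher in each (17.0% and 13.2% of all). The median log2 ratio of the 34 was -0.14 after Pam3Cys4 and -0.06 in unstimulated cells, against 0.05 and 0.02 for all genes. In the additive test 1 rose and 3 fell with shRNA, against 12.3% and 8.66% of the 9559 genes tested. With library totals as the only scaling 1 rose and 6 fell, where 1035 and 1260 of all 9567 genes tested did. At an unadjusted p of 0.05, 1 was higher (21.2% of all genes tested were) and 9 were lower (16.2% of all).

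Fads1 and Fads2 are neighbours on chromosome 19 on opposite strands and act in one route: Fads2 makes the entry desaturation of linoleic and alpha-linolenic acid, and Fads1 the later one that yields arachidonic and eicosapentaenoic acid. Fads1 (ENSMUSG00000010663) had 156 CPM in shRNA plus Pam3Cys4 against 394 in Pam3Cys4 alone, and 221 CPM in shRNA alone against 540 in neither. Fads2 (ENSMUSG00000024665) had 165 CPM in shRNA plus Pam3Cys4 against 61.3 in Pam3Cys4 alone, and 212 CPM in shRNA alone against 75.9 in neither. Both libraries with shRNA were thus below both libraries without it for Fads1 and above both for Fads2.

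The shRNA ratio of Fads1 was 0.397 after Pam3Cys4 (0.387 to 0.407) and 0.410 in unstimulated cells (0.402 to 0.418), with log2 -1.31 (standard error 0.11, edgeR adjusted p 0.00272). That of Fads2 was 2.69 after Pam3Cys4 (2.58 to 2.81) and 2.80 in unstimulated cells (2.70 to 2.90), with log2 1.46 (standard error 0.11, edgeR adjusted p 0.002). Fads1 shared no 50-base window with another gene and Fads2 0.152% of its windows, mostly with Fads3. Fads3, the next gene in the cluster, named after its values were seen, had 46 and 64 counts in the libraries with shRNA and 23 and 33 without, under 1 CPM in each.

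Elovl5, which lengthens the products of Fads2, fell with shRNA. It had 83.4 CPM in shRNA plus Pam3Cys4 against 136 in Pam3Cys4 alone, and 110 CPM in shRNA alone against 159 in neither (log2 -0.62, standard error 0.12, edgeR adjusted p 0.0271). Scd2, the stearoyl-CoA desaturase form that is common outside liver, fell too. It had 628 CPM in shRNA plus Pam3Cys4 against 1419 in Pam3Cys4 alone, and 1132 CPM in shRNA alone against 1757 in neither. Its ratio was 0.442 after Pam3Cys4 (0.437 to 0.448) and 0.645 in unstimulated cells (0.638 to 0.651), with log2 -0.91 (standard error 0.17, edgeR adjusted p 0.0271). Scd1, on the same chromosome with a single coding gene between them, had ratios of 0.865 and 0.886 and did not pass (edgeR adjusted p 0.27).

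In the sterol branches no gene passed the shRNA test, and the smallest edgeR adjusted p was 0.117, for Lss. The ratios of the 17 genes in unstimulated cells ran from log2 -0.50 to 0.27. After Pam3Cys4 they ran from -0.68 to 0.30, with Cyp51, the lanosterol demethylase, and Hsd17b7 lowest. Cyp51 had 97.5 CPM in shRNA plus Pam3Cys4 against 156 in Pam3Cys4 alone, and 144 CPM in shRNA alone against 155 in neither. Only the library with both treatments was low. Sqle had 105 CPM in shRNA plus Pam3Cys4 against 85.7 in Pam3Cys4 alone, and 102 CPM in shRNA alone against 84.4 in neither, a ratio of 1.21 to 1.22 that did not pass (edgeR adjusted p 0.152). Insig1, Stard4 and Elovl6 had shRNA ratios of 0.538, 0.653 and 0.646 after Pam3Cys4 and 0.864, 0.821 and 0.786 in unstimulated cells, with edgeR adjusted p of 0.112, 0.0896 and 0.0694.

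How far the response to Pam3Cys4 differed between the shRNA states was described by the ratio of the 2 stimulation ratios, with shRNA over without. None of the 34 differed by 2-fold, where 1.94% of 9857 genes had a larger and 1.64% a smaller ratio with shRNA. At 1.5-fold, 1 was larger (7.21% of all) and 2 were smaller (5.71% of all). The value was below 0 on the log2 scale for 23 of 34 and above 0 for 11. Of all 9857 genes, 4622 were below 0 and 5235 above. The median was -0.15, against 0.02 for all genes. It rests on 4 single libraries and was not tested.

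Insig1 had the lowest value, log2 -0.68 (-0.73 to -0.64), then Fasn at -0.62 (-0.64 to -0.60), Cyp51 at -0.57 (-0.64 to -0.50), and Hsd17b7 and Scd2 at -0.54. These are enzymes of both branches and their feedback regulator. For Fasn, Pam3Cys4 went with a ratio of 0.693 (0.687 to 0.699) with shRNA and 1.06 (1.06 to 1.07) without, the last of which was 0.940 with library totals as the only scaling. Srebf1 and Srebf2 had values of -0.35 and -0.28. Acat2 was the exception at 0.80 (0.67 to 0.93), the one gene above 1.5-fold.

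**Figure D3:**
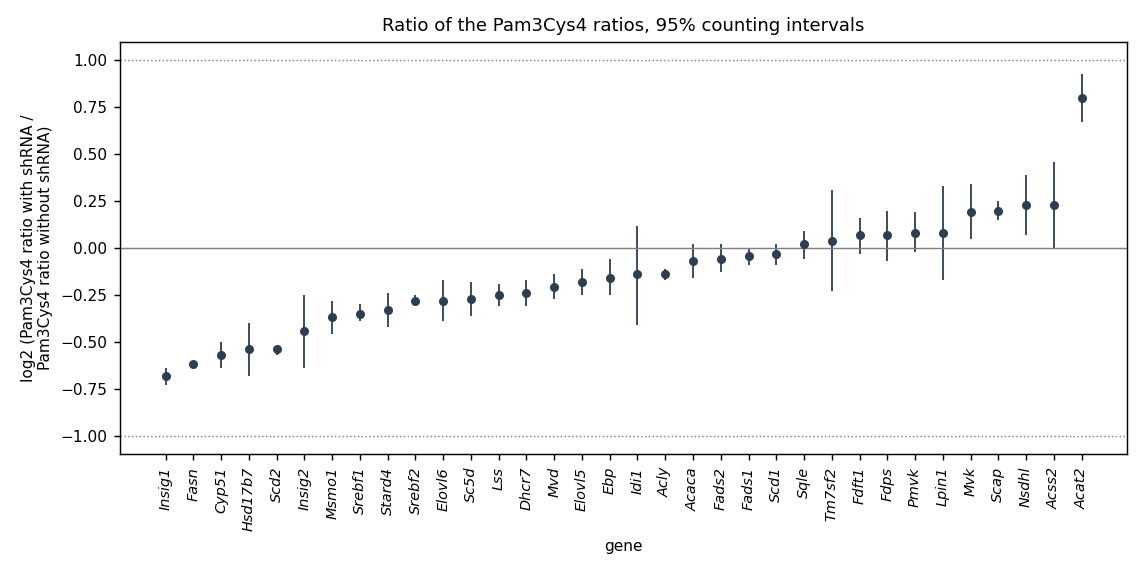
Log2 of the Pam3Cys4 ratio with shRNA over that without (y axis) for each of the 34 genes (x axis, sorted), with 95% counting intervals and dotted lines at 2-fold. 23 genes lie below 0, from Insig1 at -0.68 upward, and Acat2 stands apart at 0.80. Of all 9857 genes, 4622 were below 0.

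Of 30 further genes of sterol and lipid handling, 27 were measured and tested. With Pam3Cys4, 3 rose and 4 fell, where 11.9% and 10.9% of all genes tested did. Those that rose were the acyl-CoA synthetase genes Acsl1 and Acsl4 and Dgat2, which makes triglyceride (edgeR adjusted p 0.0136, 0.0129 and 0.0233). Acsl1 had 116 CPM in shRNA plus Pam3Cys4 against 45.5 in shRNA alone, and 99.1 CPM in Pam3Cys4 alone against 51.8 in neither. Lbr, which holds a sterol reductase domain, was among those that fell (log2 -0.74, edgeR adjusted p 0.0181), with Gpam, Pcyt2 and Tecr. With shRNA, 2 rose and 4 fell, where 12.3% and 8.66% of all genes tested did. Npc2 and Lipa, which free cholesterol from lysosomes, rose, at 930 and 315 CPM in shRNA plus Pam3Cys4 against 346 and 108 in Pam3Cys4 alone, and 747 and 289 CPM in shRNA alone against 327 and 145 in neither (edgeR adjusted p 0.00406 and 0.0103). Lbr, Acsl5, Pcyt2 and Hsd17b12 fell, with Hsd17b12, a reductase of fatty acid elongation, at log2 -0.66 (edgeR adjusted p 0.0249).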

How the data were processed

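The deposited values are read counts per Ensembl gene in 4 libraries, made by the authors with HTSeq after TopHat alignment to NCBIM37 and CASAVA 1.8, per the submitters' processing notes. The sources used here do not give the TopHat and HTSeq versions, the annotation release or the strand setting. Summary lines naming no gene held 32.5 to 34.4% of all totals, mostly reads with several alignments, and were left out. Symbols came from GENCODE vM21. Its build, GRCm38, differs from that of the counts, so none of its coordinates are printed. It was used within itself for the overlap of exons between genes and for strand, and RefSeq's gene table for the order of neighbouring genes.

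Counts were scaled by TMM (edgeR 4.0.16, R 4.3.3). Ratios were formed for genes whose higher library reached 5 CPM, with exact conditional binomial 95% intervals. Ratios of ratios needed 10 counts in each library and used delta-method intervals. The additive edgeR quasi-likelihood F test used genes with 5 CPM in at least 2 libraries and had 1 residual degree of freedom. Scaling, filters, the fold threshold and DESeq2 1.42.0 were varied. The scripts were tested on simulated data.

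The members and lists were chosen with earlier results of these data known. All members could be named. The rule for the other lists allowed up to 4 genes per comparison by size of ratio. The text instead names the genes that passed the test, a choice made after their values were seen. Shared sequence was the share of each gene's 50-base transcript windows, in GENCODE vM21, that also occur in another gene's transcripts, on either strand. Over 5% of windows were shared for 8 of the 34 genes.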

Additional observations from a re-analysis of the deposited data

Results flagged for a closer look

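The direction of the measured ratio turned between the shRNA states or between the stimulation states for 6 genes, with both counting intervals away from 1. Each such difference rests on single libraries and was not tested against replicates. Turns with both intervals away from 1 were counted for the 34 genes only. Without the interval requirement, the Pam3Cys4 ratios with and without shRNA lay on opposite sides of 1 for 7 of the 34 genes. They did so for 1791 of all 9142 genes measured in both. The shRNA ratios after Pam3Cys4 and in unstimulated cells did so for 9 of the 34, and for 2040 of all 9339 genes. The Pam3Cys4 ratio with and without shRNA was 0.693 and 1.06 for Fasn (log2 ratio of ratios -0.62), 0.945 and 1.22 for Msmo1 (-0.37), and 0.927 and 1.02 for Acly (-0.14). The shRNA ratio after Pam3Cys4 and in unstimulated cells was 1.23 and 0.707 for Acat2 (0.80), 0.933 and 1.13 for Srebf2 (-0.28), 1.09 and 0.952 for Scap (0.20), and 0.657 and 1.01 for Fasn (-0.62). With library totals as the only scaling, Fasn and Acly no longer turned: the Pam3Cys4 ratio with and without shRNA was 0.632 and 0.940 for Fasn and 0.846 and 0.902 for Acly, and the shRNA ratio of Fasn after Pam3Cys4 and in unstimulated cells was 0.625 and 0.930. With DESeq2 size factors, Acly and the shRNA ratio of Fasn also lost the turn, since an interval then included 1. Other turns appeared. The Pam3Cys4 ratio of Insig2 with and without shRNA turned with DESeq2 size factors (0.903 and 1.24). The shRNA ratio of Mvk after Pam3Cys4 and in unstimulated cells turned with library totals (1.1 and 0.928). Msmo1, Acat2, Srebf2 and Scap turned under all 3 scalings. Acat2 shares 39.1% of its 50-base windows with other genes, and the part of these copies in its values was not tested.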

How the results depend on the processing

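All 12 genes that passed the additive edgeR test in one direction or the other kept their direction and their side of the threshold under each of the 4 alternatives, DESeq2, library totals, a filter of 1 CPM and no filter. For Lpin1 the adjusted p under these ranged up to 0.00175, for Fads1 and Fads2 with shRNA up to 0.00195 and 0.0015, and for Fads1 with Pam3Cys4 up to 0.0415. The count that fell with Pam3Cys4 was 9, or 11 by DESeq2 (12.2% of all), 15 with library totals and 12 without a filter (1857 of all 19624). Without a filter 1 gene, Hsd17b7, rose, where 2013 of all 19624 genes tested did. The count that fell with shRNA was 3, or 5 by DESeq2 (11.1% of all), 6 with library totals and 6 without a filter (1874 of all 19624). With library totals, 957 of all 9567 genes tested rose and 2023 fell with Pam3Cys4, against 1138 and 1045 of 9559 with TMM. With shRNA 1035 rose and 1260 fell, against 1171 and 828 with TMM. The numbers of genes at least 2-fold apart stayed within 1.5 times under each scaling and filter. At 1.5-fold, the Pam3Cys4 ratio without shRNA had 1 higher and 5 lower, that with shRNA 8 lower, the shRNA ratio 2 lower in unstimulated cells and 9 lower after Pam3Cys4, and the ratio of ratios 1 larger and 2 smaller. No paired analysis was possible because each group holds 1 library, and leaving out a library leaves the additive model no residual degree of freedom.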

Other observations

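Genes of cholesterol efflux, oxysterols and lipid storage were listed beside the synthesis genes. Of 12 listed, 11 were tested. With Pam3Cys4, 2 rose and 0 fell in the additive edgeR test, where 11.9% and 10.9% of all genes tested did. With shRNA, 3 rose and 1 fell, where 12.3% and 8.66% of all genes tested did. Nr1h3, which encodes the oxysterol receptor LXR alpha, had 120 CPM in shRNA plus Pam3Cys4 against 7.38 in Pam3Cys4 alone, and 67.4 CPM in shRNA alone against 4.30 in neither (log2 3.99, standard error 0.14, edgeR adjusted p 0.000458). Plin2, which coats lipid droplets, had 1456 CPM in shRNA plus Pam3Cys4 against 708 in Pam3Cys4 alone, and 1483 CPM in shRNA alone against 296 in neither (edgeR adjusted p 0.0288). Abcg1, a cholesterol exporter, rose with shRNA (edgeR adjusted p 0.0131), and Abca1 and Nr1h3 rose with Pam3Cys4 (edgeR adjusted p 0.0239 and 0.0182). Cyp27a1, a sterol hydroxylase, fell with shRNA (edgeR adjusted p 0.00744).

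Ch25h, which makes 25-hydroxycholesterol, was too low for the additive test. It had 734 counts in shRNA plus Pam3Cys4 and 20 in shRNA alone, against 11 in Pam3Cys4 alone and 0 in neither. Its level was at 13.4 CPM in shRNA plus Pam3Cys4 and at most 0.300 CPM in the others. The synthesis genes went both ways in that library, and more of them were at their lowest than at their highest there. The sterol and regulator genes at their lowest there were Mvd, Lss, Cyp51, Msmo1, Ebp, Dhcr7, Stard4, Insig1 and Insig2. Acly, Fasn, Elovl6, Scd1, Scd2, Elovl5, Fads1 and Lpin1 were at their lowest there as well. Sqle (105 CPM), Fdft1 (70.0), Mvk (29.5), Nsdhl (25.9) and Idi1 (9.15) were at their highest there. These genes were named after their values were seen, and the part of Ch25h in them was not tested.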
